A study of Homo sapiens with 6 samples.

Results

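The genes described here carry out MHC class I antigen presentation, and they were chosen by symbol. Both these genes and the lists of related genes below were chosen with earlier results of these data known. The genes are the heavy chains HLA-B, HLA-C, HLA-E and HLA-F, the light chain B2M, the peptide transporter subunits TAP1 and TAP2, the loading factor TAPBP and the transcriptional activator NLRC5. These are 9 of the 23228 genes in the count tables, and all 9 were among the 12796 genes with enough reads to be tested. Transcript levels were measured by RNA-seq in MDA-MB-231, a human triple-negative breast cancer (TNBC) cell line. Control cells carried a non-targeted shRNA and PELP1-KD cells an shRNA against PELP1, a nuclear coregulator scaffold, both as stable lines selected with puromycin. Each group had 3 replicates, and whether these were separate cultures is not given in the sources used here, so the p-values measure the spread between the deposited samples, which may be technical. The control libraries held 17304864, 23083404 and 18004958 read counts on genes and the PELP1-KD libraries 19186990, 20972223 and 23132102.

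Class I molecules display peptides from inside the cell to cytotoxic T cells. Proteasomes cut proteins into peptides, the transporter formed by TAP1 and TAP2 moves the peptides into the endoplasmic reticulum, and tapasin, the product of TAPBP, helps to place them on a heavy chain paired with B2M. Interferon gamma raises most of these genes, and NLRC5 activates class I promoters as part of a protein complex on a group of motifs called the SXY module.

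In the reference annotation the HLA-B, HLA-C, HLA-E, HLA-F, TAP1, TAP2 and TAPBP genes all lie in the MHC on chromosome 6, while B2M is on chromosome 15 and NLRC5 on chromosome 16. Promoter sequences are shown for a heavy chain, for the transporter subunit with the lowest adjusted p among the 9 genes, and for the light chain, which moved the other way. Each is the GRCh38.p14 window of 300 bases from RefSeq, from 250 bases before to 50 bases after an annotated start, printed along the strand of the gene. The HLA-B window is chr6:31357130-31357429 on the minus strand, the TAP1 window chr6:32853655-32853954 on the minus strand and the B2M window chr15:44711267-44711566 on the plus strand. Capitals mark matches, on either strand, to the interferon-stimulated response element core TTTCNNTT, the NF-kB-like word GGGNNTTCC, the CRE core TGACG found in SXY modules, and CCAAT. Matches to TTTCNNTT may overlap each other.
HLA-B: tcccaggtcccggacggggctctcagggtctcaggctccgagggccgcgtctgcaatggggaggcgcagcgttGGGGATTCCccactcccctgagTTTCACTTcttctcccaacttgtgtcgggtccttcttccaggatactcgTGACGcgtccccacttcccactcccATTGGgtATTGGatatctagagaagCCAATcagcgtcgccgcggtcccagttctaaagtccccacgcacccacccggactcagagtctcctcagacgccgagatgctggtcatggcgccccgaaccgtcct
TAP1: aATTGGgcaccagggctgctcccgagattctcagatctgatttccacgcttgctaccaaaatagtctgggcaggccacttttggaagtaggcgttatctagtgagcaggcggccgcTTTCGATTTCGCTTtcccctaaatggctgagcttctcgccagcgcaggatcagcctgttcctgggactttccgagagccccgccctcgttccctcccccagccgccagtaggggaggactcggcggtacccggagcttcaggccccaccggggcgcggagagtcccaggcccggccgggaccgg
B2M: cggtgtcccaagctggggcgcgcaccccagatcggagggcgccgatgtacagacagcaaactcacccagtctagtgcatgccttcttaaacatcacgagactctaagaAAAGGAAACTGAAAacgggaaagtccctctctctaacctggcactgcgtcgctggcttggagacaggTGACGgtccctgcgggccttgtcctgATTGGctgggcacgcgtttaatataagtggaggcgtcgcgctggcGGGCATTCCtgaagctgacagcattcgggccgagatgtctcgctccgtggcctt
RefSeq's table held windows for 7 of the 9 genes, all but HLA-E and NLRC5. All 7 had a TTTCNNTT match in at least 1 window, as did 26.7% of the 27305 genes in the table (22.8% of its 35116 windows). GGGNNTTCC was present in 3 of the 7 (7.95% of genes), TGACG in 4 (28.4%), CCAAT in 5 (39.7%) and the GAS-like word TTCNNNGAA in 1 (9.38%). Longer variants of GGGNNTTCC were neither marked nor counted. An example is gggactttcc, which is in the printed TAP1 window and, on the other strand, in the B2M window. TAP1 has a second window, chr6:32852712-32853011, which holds no TTTCNNTT match and the only TTCNNNGAA match. The words were picked with these sequences in view, the heavy-chain promoters are copies of a common ancestor, and a match is a description of the letters and not a site of binding.

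PELP1 itself was compared first, as a check of the labels. Its read count was 968, 1274 and 1069 in control replicates 1 to 3, and 557, 637 and 712 in the same order in PELP1-KD cells. As CPM, read counts relative to the library size after TMM scaling, this was 57.8 ± 2.13 against 29.6 ± 0.876 (SD, n = 3), without overlap. The log2FC was -0.97 (SE 0.055), with an adjusted p of 1.48e-11 from the quasi-likelihood test of edgeR after Benjamini-Hochberg correction. Of 7 tested transcripts that mark this line or breast epithelium none was upregulated, beside 22.7% of all tested genes. The abundant VIM, CD44, EGFR, KRT8 and KRT18 were downregulated, which are 5 of the 7, beside 24.2% of all tested genes, with log2FC from -0.55 for CD44 to -0.13 for KRT8. EPCAM (9.46 and 9.57 CPM) and ERBB2 (113 and 118 CPM) did not pass the test, and the hormone receptors ESR1 and PGR and the cadherin CDH1 were at or below 0.225 CPM in every library. Of 12 markers of leukocytes and endothelium, 9 were too low to be tested. PTPRC, CD4 and MS4A1 had no read in any library, where 3 reads would have been 0.128 to 0.177 CPM. CD8A was the most abundant of these markers, at 1.27 ± 0.345 CPM in control and 1.75 ± 0.396 CPM in PELP1-KD cells, and VWF, an endothelial marker, rose from 0.108 ± 0.139 to 0.744 ± 0.17 CPM, on 1, 6 and 0 reads in the control libraries (log2FC 2.56, and 4.42 without control replicate 2). The 12 markers summed to 1.83, 2.2 and 2.82 CPM in the control libraries and to 2.87, 3.8 and 4.08 CPM in the PELP1-KD libraries, and the part of this rise in the results was not tested.

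Most of the class I genes were upregulated in PELP1-KD cells, by modest amounts. At an adjusted p below 0.05 by edgeR's quasi-likelihood test, 6 of the 9 genes were upregulated, beside 22.7% of all tested genes. B2M was downregulated, beside 24.2% of all tested genes, and HLA-E and NLRC5 did not pass. In 7 of the 9 genes every PELP1-KD replicate lay above every control replicate, which held for 27.0% of tested genes. In B2M every PELP1-KD replicate lay below, which held for 28.0% of tested genes. Because the 9 genes were chosen with earlier results of these data known, these shares are descriptions. The median log2FC was 0.36 over the 9 genes and 0.0014 over all tested genes. None of the 9 reached a log2FC of 1, and 1.90% of tested genes were upregulated by more than that. In bulk RNA, a change in the number of expressing cells and a change in RNA per cell cannot be told apart.

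**Figure D1:**
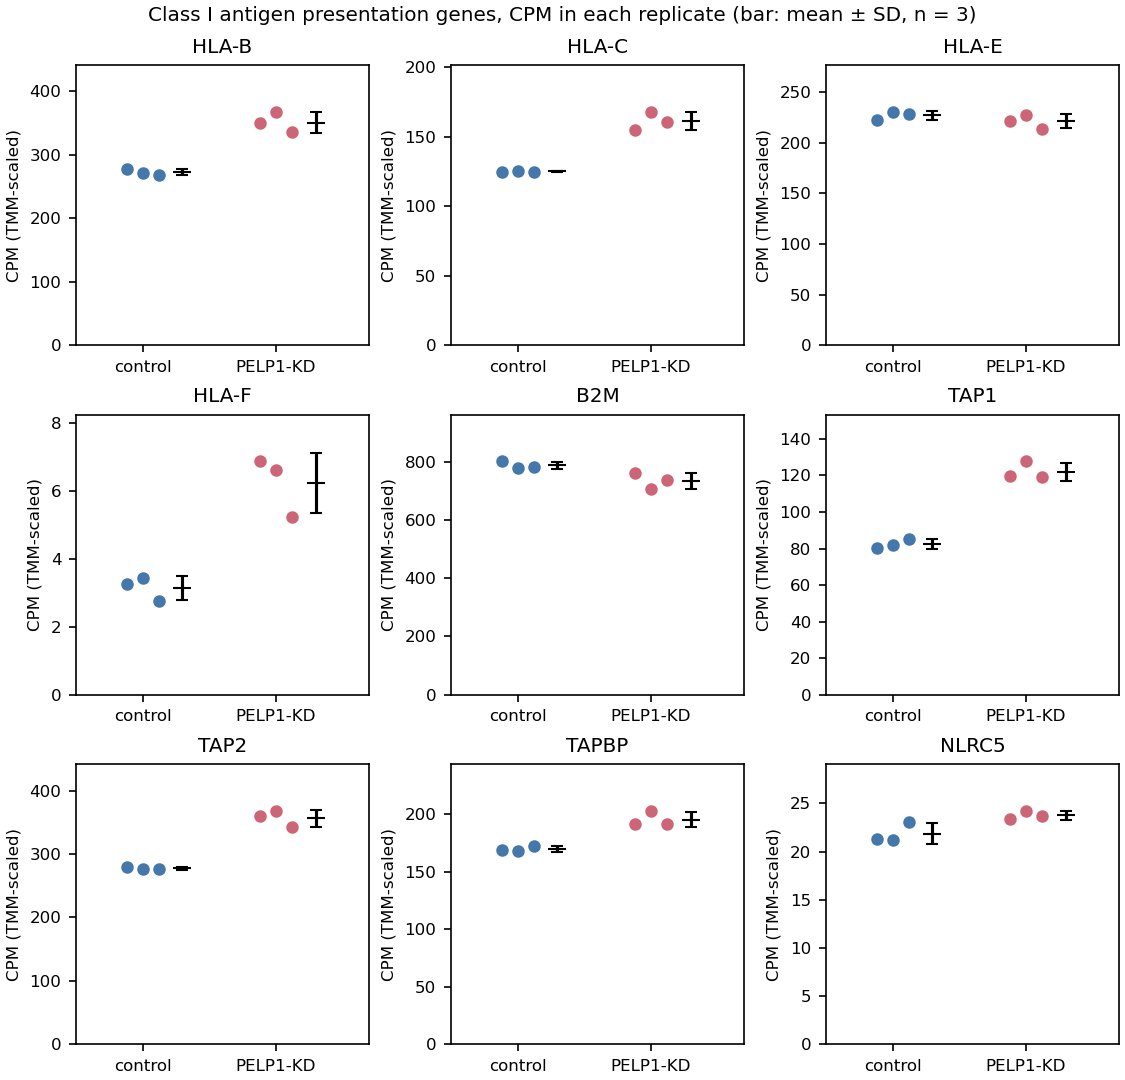
Level of each of the 9 genes in CPM (TMM-scaled), with 1 point per replicate for control and PELP1-KD cells and a bar for the mean ± SD (n = 3), on axes starting at 0. The PELP1-KD points lie above all control points in 7 panels and below them for B2M, and the ranges overlap for HLA-E.

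HLA-B and HLA-C encode classical heavy chains, which present peptides to T cells and also engage receptors of natural killer cells. HLA-B had 277, 272 and 268 CPM in the control replicates and 349, 367 and 335 CPM in the PELP1-KD replicates. The lowest knockdown value was above the highest control value, and HLA-B was upregulated 1.29-fold (log2FC 0.36, SE 0.035, edgeR adjusted p = 3.67e-08, from the same quasi-likelihood test with Benjamini-Hochberg correction as each adjusted p that follows). HLA-C was at 125.0, 125.3 and 125.0 CPM in the controls and at 155, 168 and 161 CPM in PELP1-KD cells. The groups were again apart, with a 1.29-fold rise (log2FC 0.37, SE 0.039, edgeR adjusted p = 1.56e-07).

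Of the non-classical heavy chains, HLA-F was upregulated and HLA-E did not pass the test. HLA-E presents leader peptides of other class I chains to receptors of natural killer cells. It had 222, 230.5 and 229 CPM in control cells and 221, 228 and 214 CPM in PELP1-KD cells. These ranges overlapped, and the log2FC of -0.04 (SE 0.034) did not pass edgeR's test (adjusted p = 0.362). HLA-F, a heavy chain known for forms without bound peptide, had the lowest level of the 4 chains and the largest log2FC of the 9 genes. Its 3.25, 3.43 and 2.76 CPM in control cells stood against 6.88, 6.61 and 5.23 CPM in PELP1-KD cells. HLA-F was upregulated 1.96-fold without overlap (log2FC 0.97, SE 0.15, edgeR adjusted p = 1.78e-05), on 55, 78 and 49 reads in control and 134, 141 and 123 reads in PELP1-KD libraries. HLA-G, a heavy chain best known from the placenta, had 7, 37 and 47 reads in control and 14, 60 and 61 reads in PELP1-KD libraries. Replicate 1 was low in both groups, the ranges overlapped and HLA-G did not pass the test (log2FC 0.40, edgeR adjusted p = 0.429). Its log2FC was 0.003 without control replicate 1, 0.92 without control replicate 3, 0.77 without PELP1-KD replicate 1, 0.13 without PELP1-KD replicate 2 and 0.19 without PELP1-KD replicate 3, and none of these passed.

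B2M encodes the invariant light chain that every one of these heavy chains pairs with. It was the most abundant of the 9 transcripts, at 801, 777 and 783 CPM in control cells and 760, 705 and 737 CPM in PELP1-KD cells. All knockdown values lay below all control values, and B2M was downregulated to 0.932 of control (log2FC -0.10, SE 0.029, edgeR adjusted p = 0.0079). With libraries scaled to their totals in place of TMM the log2FC was -0.05 and did not pass (edgeR adjusted p = 0.147, with a range of 0.0016 to 0.147 over all alternatives). Adding the heavy chains HLA-B, HLA-C, HLA-E and HLA-F gave 627, 631 and 624 CPM in control and 732, 769 and 715 CPM in PELP1-KD cells, a 1.18-fold higher mean. HLA-E supplied 36.2% ± 0.685 of the reads of these 4 chains in control and 29.9% ± 0.318 in PELP1-KD cells, and the groups did not overlap.

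Ratios of read counts within a library do not depend on how libraries are scaled. The HLA-B to B2M ratio was 0.346, 0.349 and 0.342 in control cells and 0.459, 0.521 and 0.454 in PELP1-KD cells, 1.38 times higher on average. The HLA-C to B2M ratio rose from 0.159 ± 0.00262 to 0.22 ± 0.0173, a factor of 1.39, also without overlap. With 3 replicates a group the smallest exact two-sided permutation p is 0.1, so the ratios are given as descriptions.

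**Figure D2:**
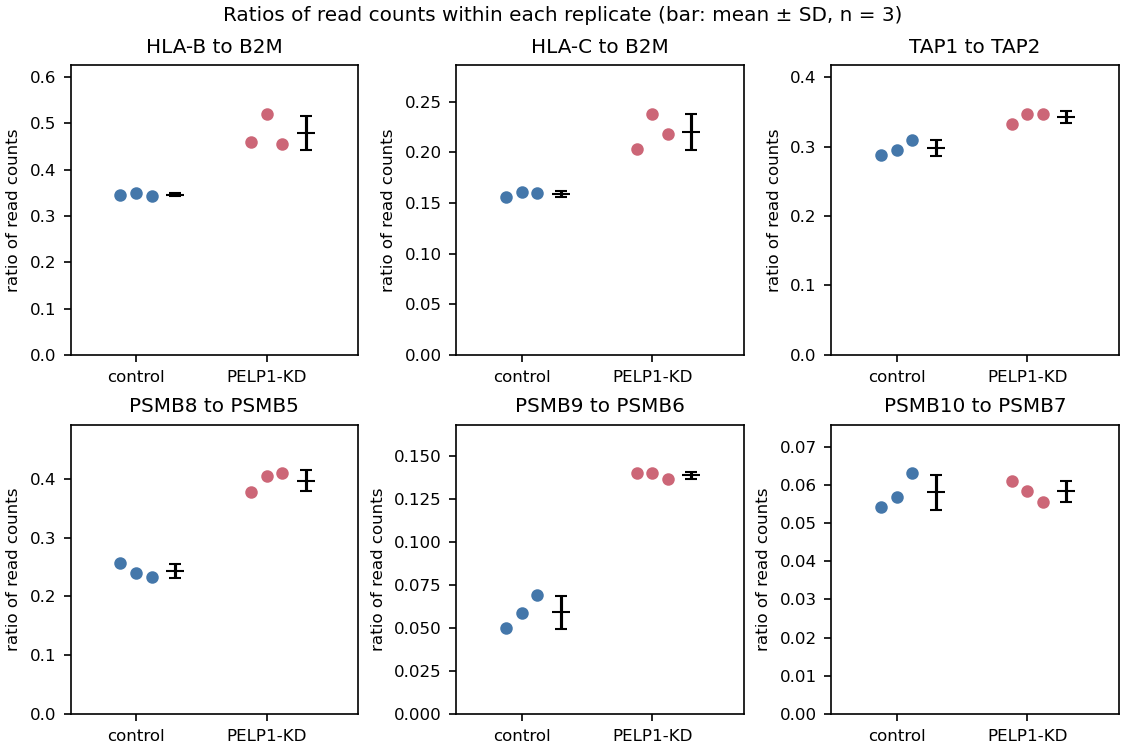
Ratio of read counts between pairs of genes within each library, with 1 point per replicate for control and PELP1-KD cells and a bar for the mean ± SD (n = 3), on axes starting at 0. All pairs but PSMB10 to PSMB7 have every PELP1-KD point above every control point.

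TAP1 and TAP2 form the transporter that carries peptides into the endoplasmic reticulum. TAP1 had 80.2, 81.9 and 85.4 CPM in control and 119.5, 127.7 and 118.9 CPM in PELP1-KD cells. It was upregulated 1.48-fold without overlap and had the lowest adjusted p of the 9 genes (log2FC 0.56, SE 0.044, edgeR adjusted p = 1.57e-09). TAP2 was at 279, 277 and 276 CPM in control and at 360.1, 368 and 342 CPM in PELP1-KD cells. Its rise of 1.29-fold had the size of those of HLA-B and HLA-C (log2FC 0.36, SE 0.033, edgeR adjusted p = 1.55e-08). The ratio of TAP1 to TAP2 reads went from 0.298 ± 0.0113 to 0.342 ± 0.00894, 1.15 times higher and without overlap.

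TAPBP encodes tapasin, which holds empty heavy chains next to the transporter and helps to select tightly bound peptides. It had 169, 168 and 173 CPM in control and 192, 203 and 191 CPM in PELP1-KD cells. The groups did not overlap, and the rise of 1.15-fold was the smallest among the 6 upregulated genes (log2FC 0.20, SE 0.036, edgeR adjusted p = 0.000112). Its relative TAPBPL, which edits peptides outside the loading complex, had 1.47 ± 0.295 and 2.15 ± 0.557 CPM and did not pass (log2FC 0.53, edgeR adjusted p = 0.064). That p lay between 0.034 and 0.31 over the alternatives and was below 0.05 without control replicate 3 (0.036), without PELP1-KD replicate 3 (0.034), with libraries scaled to their totals (0.0439) and without the filter on low counts (0.0454). Without PELP1-KD replicate 1 the log2FC of TAPBPL was 0.32.

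The list of peptide transport and loading genes held 9 tested genes, of which 3 were upregulated, namely TAP1, TAP2 and TAPBP (22.7% of all tested genes). Another 3, general folding factors of the endoplasmic reticulum, were downregulated (24.2% of all tested genes), so neither share was far from that of all genes. CANX (calnexin) fell from 2245, 2092 and 2053 CPM to 1604, 1566 and 1582 CPM (log2FC -0.43, edgeR adjusted p = 1.81e-10). CALR (calreticulin) had a log2FC of -0.16 and PDIA3, the disulfide isomerase of the loading complex, one of -0.14, and both groups of replicates were apart in each gene. The aminopeptidases ERAP1 (log2FC 0.04) and ERAP2 (log2FC -0.16), which trim peptides inside the endoplasmic reticulum, did not pass.

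NLRC5 encodes the activator of class I promoters. It had 21.3, 21.2 and 23.1 CPM in control and 23.3, 24.2 and 23.7 CPM in PELP1-KD cells. The lowest knockdown value was above the highest control value by a narrow margin, and the log2FC of 0.12 (SE 0.067) did not pass edgeR's test (adjusted p = 0.141). With libraries scaled to their totals it was 0.17 and passed (edgeR adjusted p = 0.0403, with a range of 0.0403 to 0.349 over the alternatives).

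Of 10 factors that bind or act at the SXY module, NLRC5 included, none was upregulated (22.7% of all tested genes) and 5 were downregulated (24.2% of all tested genes), with a median log2FC of -0.14. CIITA, the class II counterpart of NLRC5, fell from 8.34, 10.8 and 8.05 CPM to 5.13, 5.02 and 4.42 CPM (log2FC -0.92, SE 0.13, edgeR adjusted p = 6.68e-06). The CCAAT-binding subunit NFYB fell with a log2FC of -0.58 and NFYA with one of -0.26, while NFYC did not pass (log2FC -0.02). The CRE-binding factors ATF1 and CREB1 fell with log2FC of -0.37 and -0.26. The X-box complex RFX5 (log2FC 0.05), RFXAP (0.0013) and RFXANK (0.14, edgeR adjusted p = 0.0535) did not pass. RFXANK passed without PELP1-KD replicate 1 (edgeR adjusted p = 0.0245, with a range of 0.0112 to 0.207 over the alternatives).

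The immunoproteasome is the form of the proteasome that interferon induces, with PSMB8, PSMB9 and PSMB10 in place of PSMB5, PSMB6 and PSMB7, and PA28 is the activator built from PSME1 and PSME2. Of these 5 interferon-inducible genes, 4 were upregulated (22.7% of all tested genes) and PSMB10 did not pass. PSMB8 had 65.4, 63.1 and 60.9 CPM in control and 112, 118 and 117 CPM in PELP1-KD cells, a 1.83-fold rise (log2FC 0.87, SE 0.045, edgeR adjusted p = 2.33e-12). PSMB9 had 12.1, 14.3 and 16.6 CPM in control and 33.6, 33.3 and 31.0 CPM in PELP1-KD cells. The rise was 2.27-fold (log2FC 1.18, SE 0.085, edgeR adjusted p = 4.92e-10), and PSMB9 lies head to head with TAP1. PSMB10 overlapped between the groups, at 18.0 ± 1.75 and 17.2 ± 0.998 CPM (log2FC -0.07, edgeR adjusted p = 0.511).

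PSME2 was upregulated with a log2FC of 0.35 (edgeR adjusted p = 3.71e-06). PSME1 rose from 155 ± 4.61 to 167 ± 3.06 CPM (log2FC 0.10, edgeR adjusted p = 0.0312), and that call was lost when any of control replicates 1 and 2 or the PELP1-KD replicates was left out (edgeR adjusted p 0.0554 to 0.0904). Of the constitutive subunits, PSMB5 rose with a log2FC of 0.16, while PSMB6 (-0.04) and PSMB7 (-0.07, edgeR adjusted p = 0.0666) did not pass, although PSMB7 did without control replicate 1 (0.00827, in a range of 0.00827 to 0.577 over the alternatives). Within libraries the PSMB8 to PSMB5 ratio went from 0.243 ± 0.0123 to 0.397 ± 0.0178 and the PSMB9 to PSMB6 ratio from 0.0594 ± 0.00956 to 0.139 ± 0.00214. The PSMB10 to PSMB7 ratio was 0.058 ± 0.00461 and 0.0583 ± 0.00274, with overlap.

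Cytosolic peptidases shorten or destroy peptides before transport. Of 6 tested, none was upregulated and 3 were downregulated, beside 22.7% and 24.2% of all tested genes. NPEPPS, the puromycin-sensitive aminopeptidase, fell from 107 ± 5.05 to 74.5 ± 1.9 CPM (log2FC -0.52, edgeR adjusted p = 1.04e-08), and TPP2, tripeptidyl peptidase II, from 78.6 ± 4.73 to 61.7 ± 0.432 CPM (log2FC -0.35, edgeR adjusted p = 7.53e-06). BLMH fell with a log2FC of -0.11 (edgeR adjusted p = 0.036), a call lost without control replicate 1 or 3 or PELP1-KD replicate 1 or 3 (edgeR adjusted p 0.0569 to 0.126).

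**Figure D3:**
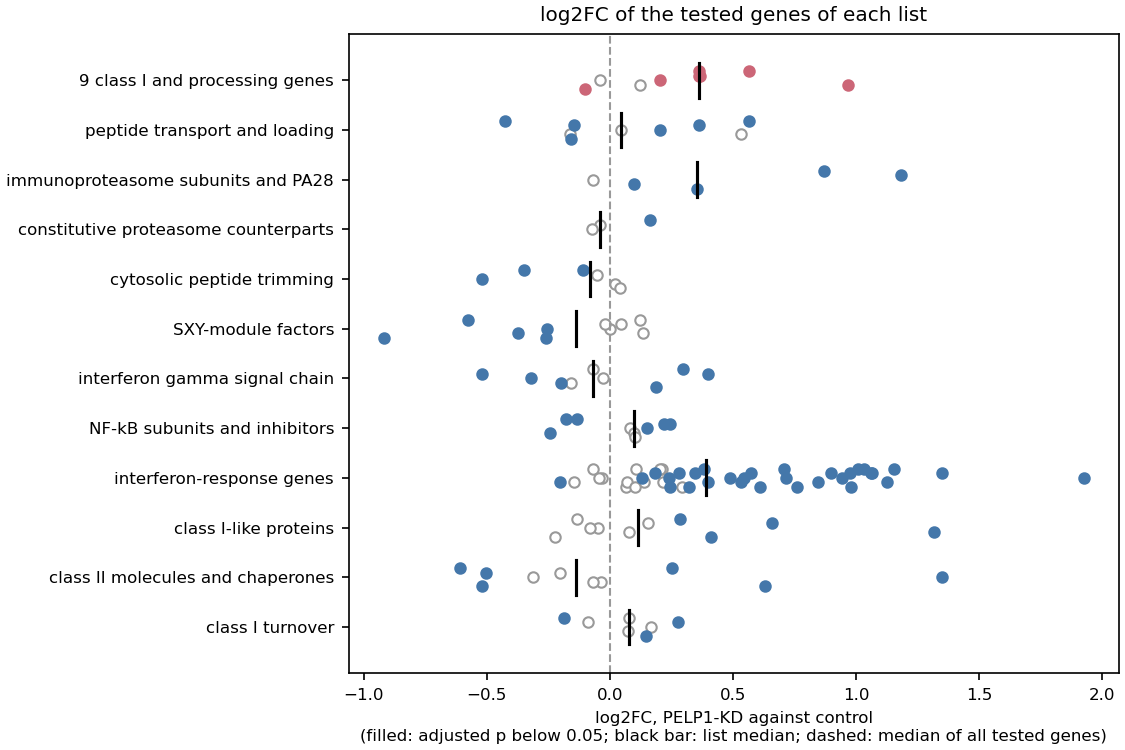
The log2FC of every tested gene, 1 point per gene, for the 9 class I genes and 11 lists of related genes, with filled points for an adjusted p below 0.05, a black bar for the median of each list and a dashed line for the median of all tested genes. The 9 class I genes (median 0.36), the immunoproteasome list (median 0.35) and the interferon-response list (median 0.39) lie mostly to the right of 0.

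The interferon gamma signal chain, which runs from the receptor through JAK kinases to IRF1, had 3 genes upregulated and 3 downregulated of the 9 reported, where 22.7% and 24.2% of all tested genes were. IFNGR2, a receptor subunit, rose from 73.0 ± 2.49 to 96.2 ± 0.825 CPM (log2FC 0.40, edgeR adjusted p = 2.58e-07), and IFNGR1 did not pass (log2FC -0.07). The kinase JAK1 fell from 114 ± 0.938 to 91.2 ± 1.76 CPM (log2FC -0.32, edgeR adjusted p = 1.53e-06). JAK2 did not pass (log2FC -0.16, and from -0.24 to -0.07 with 1 replicate left out). IRF2 rose with a log2FC of 0.30, and the phosphatase PTPN2 fell with one of -0.20.

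IRF1 rose from 28.8 ± 1.38 to 32.9 ± 1.9 CPM (log2FC 0.19, edgeR adjusted p = 0.0212), a call lost without control replicate 3 (0.101) or PELP1-KD replicate 1 (0.0744) or 2 (0.0774). The inhibitor SOCS1 fell with a log2FC of -0.52 on under 4 CPM and with overlap (edgeR adjusted p = 0.0461), and 5 of the 6 fits without a replicate, all but that without control replicate 1, lost the call (0.0586 to 0.276), with a log2FC of -0.30 without control replicate 3. SOCS3 did not pass (log2FC -0.03).

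Interferon-response genes outside antigen processing were mostly higher. Of 49 listed genes 44 were tested, and 30 were upregulated and 1 downregulated (22.7% and 24.2% of all tested genes), with a median log2FC of 0.39. The number upregulated was 23 to 34 over the alternatives and 23 to 29 with 1 replicate left out. This list, too, was chosen with earlier results of these data known. BST2, which tethers budding virus to the cell surface, rose from 30.2, 30.1 and 31.4 CPM to 76.2, 78.1 and 79.3 CPM (log2FC 1.35, SE 0.051, edgeR adjusted p = 2.14e-14). The guanylate-binding proteins GBP1 (30.7 ± 2.16 to 61.5 ± 2.96 CPM, log2FC 1.01) and GBP2 (18.6 ± 1.75 to 34.5 ± 0.639 CPM, log2FC 0.90) rose as well. The RNA sensor gene DDX58 was the gene that fell (log2FC -0.20, edgeR adjusted p = 0.0033). The chemokine genes CXCL9, CXCL10 and CXCL11 and the enzyme gene IDO1, all strongly induced by interferon gamma in many cells, had at most 4 reads in any library and were not tested.

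**Figure D4:**
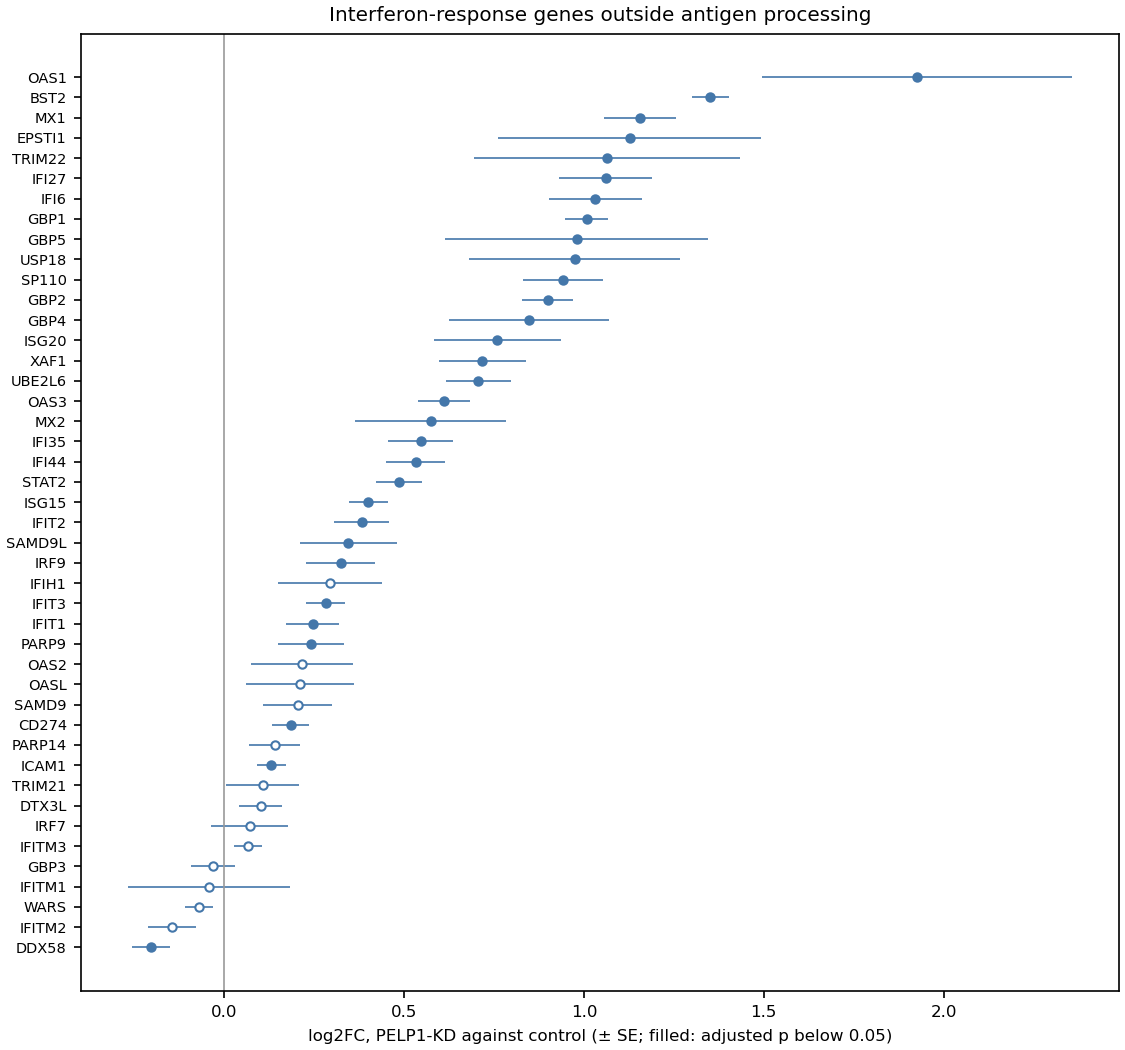
The log2FC of 44 tested interferon-response genes outside antigen processing in PELP1-KD against control cells, with bars for ± 1 SE and filled points for an adjusted p below 0.05, ordered by size. Most points lie to the right of 0, with OAS1 at 1.93, BST2 at 1.35 and DDX58 at -0.20. OAS1 had 4, 4 and 3 reads in the control libraries.

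Of 9 tested genes of NF-kB, which binds class I promoters together with interferon factors, 3 were upregulated and 3 downregulated, near the 22.7% and 24.2% of all tested genes. NFKB2 rose (log2FC 0.24, edgeR adjusted p = 0.000681) and NFKB1 fell (log2FC -0.18, edgeR adjusted p = 0.00282), and these calls were kept in every fit without a replicate. The inhibitor genes NFKBIE (0.15), NFKBIB (0.22), NFKBIA (-0.13) and TNFAIP3 (-0.24) also passed edgeR's test, with adjusted p from 0.0132 to 0.0354. NFKBIE did not pass without control replicate 1 or PELP1-KD replicate 1 or 2, NFKBIB without control replicate 1 or PELP1-KD replicate 2 or 3, NFKBIA without control replicate 2 or PELP1-KD replicate 3, and TNFAIP3 without control replicate 2 or 3 or PELP1-KD replicate 1 or 2 (edgeR adjusted p 0.0521 to 0.194 in these fits). NFKBIB, which overlapped between the groups, had a log2FC of 0.09 without control replicate 1.

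Class I-like proteins share the heavy-chain fold but do not need the same peptides. Of 17 listed 10 were tested, and 4 were upregulated and none downregulated (22.7% and 24.2% of all tested genes). The stress ligands MICA (63.4 ± 1.07 to 84.3 ± 3.21 CPM, log2FC 0.41) and MICB (121 ± 0.249 to 147 ± 3.43 CPM, log2FC 0.28), which activate the NKG2D receptor, rose without overlap. MR1, which presents vitamin B metabolites, rose from 4.1 ± 0.193 to 6.44 ± 0.556 CPM (log2FC 0.66, edgeR adjusted p = 0.000222). AZGP1, named after its value was seen, rose from 0.586 ± 0.114 to 1.45 ± 0.236 CPM. The CD1 genes that present lipids had at most 1 read in any library.

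Class II molecules, which present peptides from taken-up proteins and depend on CIITA, were listed with 13 genes, of which 10 were tested. Of these 3 were upregulated and 3 downregulated, near the shares of all tested genes (22.7% and 24.2%). HLA-DRA fell from 45.0, 43.0 and 40.9 CPM to 28.7, 27.8 and 28.0 CPM (log2FC -0.61, SE 0.058, edgeR adjusted p = 3.91e-08). HLA-DRB1 (log2FC -0.51) and HLA-DPB1 (log2FC -0.52) fell from 9.06 ± 0.272 to 6.37 ± 0.52 CPM and from 3.99 ± 0.136 to 2.77 ± 0.373 CPM, the latter not past the threshold in DESeq2 (adjusted p = 0.0592, with a range of 0.00515 to 0.0592 over the alternatives). CTSS, a protease of the class II pathway, rose (log2FC 0.63), as did HLA-DOB on at most 1.39 CPM (log2FC 1.35). HLA-DMA rose with a log2FC of 0.25 (edgeR adjusted p = 0.0413), a call lost without control replicate 1 or 3 or PELP1-KD replicate 2 or 3 (edgeR adjusted p 0.0645 to 0.129) or without the filter on low counts (0.0518).

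Among 7 genes of class I turnover and signal-peptide processing, 2 were upregulated and 1 downregulated, about the 22.7% and 24.2% of all tested genes. The ubiquitin ligase genes MARCH9 (log2FC 0.28, edgeR adjusted p = 0.0229) and WWP2 (log2FC 0.15, edgeR adjusted p = 0.0233) rose and MARCH4 fell (log2FC -0.19, edgeR adjusted p = 0.0116). MARCH9 did not pass without control replicate 2 or 3 or PELP1-KD replicate 2 or 3, WWP2 without control replicate 2 or PELP1-KD replicate 2, and MARCH4 without PELP1-KD replicate 1 or 3 (edgeR adjusted p 0.0512 to 0.101 in these fits).

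Levels were compared between genes per kilobase of a representative GENCODE transcript (RPKM). In control cells B2M had the highest level, at 462 ± 7.15 RPKM, followed by HLA-B at 176 ± 3.03, TAP2 at 111 ± 0.709, TAPBP at 89.9 ± 1.42, HLA-E at 87.3 ± 1.7, HLA-C at 81.5 ± 0.117, TAP1 at 27.9 ± 0.885, NLRC5 at 3.2 ± 0.158 and HLA-F at 1.93 ± 0.213 RPKM. TAPBP and HLA-E were the only neighbours in this order whose means ± SD overlapped. In PELP1-KD cells HLA-C, at 105 ± 4.27 RPKM, stood above HLA-E at 85.0 ± 2.65 and beside TAPBP at 103 ± 3.55. The order depends on the transcript used: with the union of all annotated exons, HLA-E (76.3 RPKM in control cells) came directly after HLA-B, and TAP2 (43.4) came after HLA-C (49.9).

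Some of these transcripts share stretches with other genes, where reads may be assigned to either or dropped. Of all windows of 50 bases in the annotated transcripts, 31.3% in TAP2, 21.6% in HLA-F, 17.8% in HLA-B, 9.78% in TAP1, 5.7% in HLA-C, 4.87% in HLA-E and 4.73% in TAPBP also occurred in another gene on either strand, and 0% in B2M and NLRC5. Outside the 9 genes the share was 27.5% in PSMB10, 22.0% in HLA-G, 18.2% in PSMB8 and 3.05% in PSMB9. Alignments tallied as not unique were 32.5 to 32.9% of the total tally in each library. A read with several placements may enter that tally more than 1 time, and the part of such reads in these values was not tested.

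The 7 genes of the MHC were also set beside their neighbours. In the interval from HLA-F to TAPBP, chr6:29723279-33314212 in GRCh38, 94 other genes were tested, of which 49 (52.1%) were upregulated and 6 (6.38%) downregulated. Of all tested genes, 22.7% were upregulated and 24.2% downregulated. Without the listed genes as well, 43 of 81 (53.1%) were upregulated and 3 (3.7%) downregulated. On the rest of chromosome 6, 139 of 506 genes (27.5%) were upregulated and 137 (27.1%) downregulated. Among whole chromosomes, the share upregulated reached 39.4% on chromosome 19. These shares are descriptions, since neighbouring genes are not independent. RNF39, named after its value was seen, had the largest log2FC in the interval (5.27, from 0.0972 to 4.28 CPM). Its control mean lay below the CPM of 3 reads (0.128 to 0.177).

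The guanine and cytosine (GC) content of transcripts moved with these shares. Over 11290 of the 12796 tested genes (88.2%) with a transcript to measure, the median GC content was 48.8%, and it was 55.4% for the 94 neighbours. The tested genes were split by GC content into 5 groups of about equal size. Outside the interval, the share upregulated was 10.0% in the lowest of 5 such groups and 36.2% in the highest. Within the same groups, 30 of 48 neighbours (62.5%) were upregulated in the group below the highest, beside 31.3% of genes outside the interval, and 13 of 26 (50.0%) in the highest. Relative to the median log2FC of its own group, HLA-F was higher by 0.91, TAP1 by 0.50, TAP2 by 0.30, HLA-C by 0.25, HLA-B by 0.24, TAPBP by 0.08, NLRC5 by 0.06 and B2M by 0.03, and HLA-E stood at -0.10. B2M has the lowest GC content of the 9 genes (39.4%), and genes of its group had a median log2FC of -0.13. The part of GC content in the calls was not tested.

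**Figure D5:**
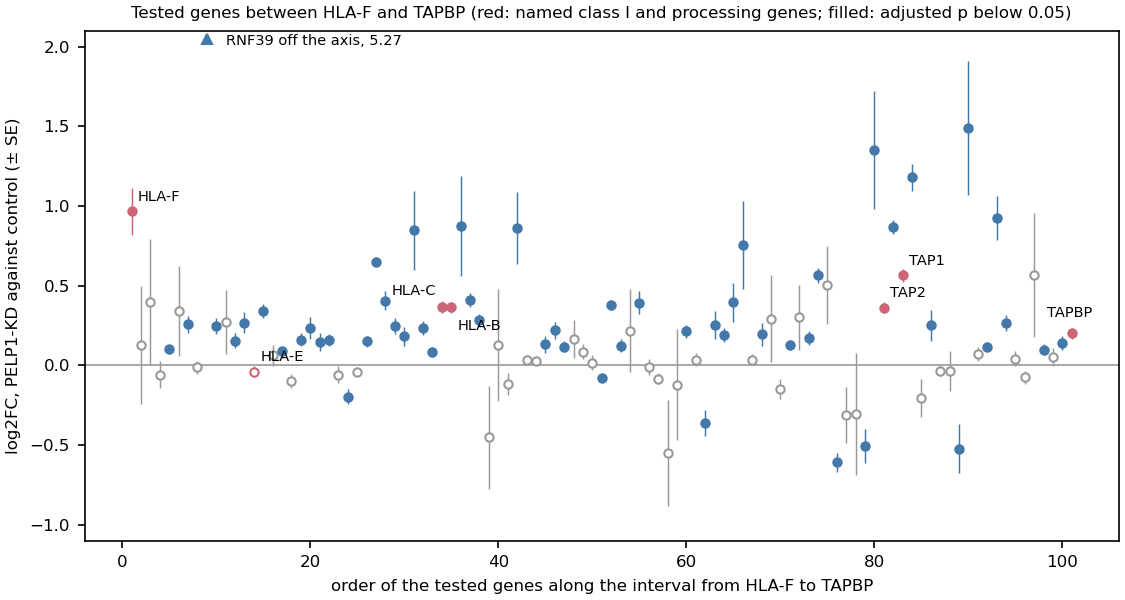
The log2FC of the 101 tested genes from HLA-F to TAPBP on chromosome 6, in their order along the chromosome, with bars for ± 1 SE, filled points for an adjusted p below 0.05 and the 7 class I genes of the interval in red. RNF39, at 5.27, lies off the axis and is marked by a triangle.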

How the data were processed

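The 6 libraries were made with a stranded mRNA kit, per the labels, and the authors deposited raw read counts per gene symbol, 1 table per sample. The submitters' processing notes name bcl2fastq, TopHat2, SAMtools, HTSeq and hg19; versions, annotation and the strand setting of counting are not given in the sources used here. Rows that name no gene were left out (no feature 7.64 to 8.2% of the total tally, ambiguous 0.657 to 0.688%, not unique 32.5 to 32.9%). Counts were fitted with edgeR 4.0.16 (R 4.3.3; filterByExpr with its minimum count of 10, TMM, glmQLFit, glmQLFTest), control against PELP1-KD, with Benjamini-Hochberg adjustment over 12796 genes. An adjusted p below 0.05 was a call. The SE is the log2FC over the root of F. The fit was tested on simulated data. DESeq2 1.42.0, voom in limma 3.58.1 and other scalings and filters were alternatives, as was leaving out each replicate. Replicate pairs of a group differed by more than sampling noise (chi-square over degrees of freedom 1.47 to 4.11). Coordinates and lengths come from GENCODE on GRCh38 and not from the counting build.

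The members and lists were chosen with earlier results of these data known. Named genes were the 9 genes, PELP1, every gene of the class I chain, loading, immunoproteasome, SXY and interferon gamma lists, up to 3 genes per direction of the other lists by lowest adjusted p, and the identity and leukocyte markers. Some genes these lists would hold are not reported here and were left out of their counts. TMM-scaled CPM of 3 counts was 0.128 to 0.177 per library, covering counting error only.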

Additional observations from a re-analysis of the deposited data

How the results depend on the processing

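The 6 upregulated class I genes kept their direction and their call under all 13 alternatives, with log2FC from 0.33 to 0.41 for HLA-B, 0.34 to 0.42 for HLA-C, 0.88 to 1.09 for HLA-F, 0.53 to 0.61 for TAP1, 0.34 to 0.41 for TAP2 and 0.17 to 0.25 for TAPBP, and PELP1 kept its call with -0.99 to -0.92. With libraries scaled to their totals the median of all tested genes moved from 0.0014 to 0.05. Under that scaling HLA-E turned to 0.0098, B2M was -0.051 (edgeR adjusted p = 0.147) and no longer passed, NLRC5 was 0.17 and passed (0.0403), and 0 of the 9 genes and 0 of the class I chain list were downregulated. The same scaling gave 2 SXY factors higher, 1 NF-kB gene lower, and 5 turnover genes higher and 0 lower, and turned PSMB6 to 0.0074, NFYC to 0.028, SOCS3 to 0.022, GBP3 to 0.018 and IFITM1 to 0.0066. SOCS1, BLMH (-0.06), NFKBIA (-0.09), TNFAIP3 and MARCH4 no longer passed under it, TAPBPL, RFXANK and IFITM3 did, PDIA3 was -0.10 and KRT8 was -0.08. DESeq2 gave 1 NF-kB gene higher and 0 turnover genes higher, and the calls of PSME1, IRF1, SOCS1, BLMH, NFKBIE, NFKBIB, TNFAIP3, HLA-DMA, HLA-DPB1, MARCH9, WWP2, GBP5 and MX2 were lost. Without the filter on low counts 1 SXY factor was higher and 2 interferon-response genes were lower, TAPBPL and RFXANK passed and HLA-DMA did not. No pairing by the shared replicate numbers was seen over all tested genes (correlation of deviations 0.0388, 0.0653 and -0.0784 for numbers 1 to 3). That measure may miss pairing in some genes, and a shared preparation by number was not tested. A replicate block gave 1 constitutive subunit lower, 1 SXY factor higher and RFXAP at -0.0024. PSMB7 and RFXANK passed with the block. SOCS1 did not pass with voom. RFXAP was -0.0037 with voom and -0.0014 with at least 10 counts in every replicate. Leaving out each replicate in turn gave 0 to 1 constitutive subunits lower, 0 to 1 SXY factors higher, 2 to 3 interferon gamma chain genes lower, 1 to 3 NF-kB genes higher and 1 to 3 lower, and 0 to 2 turnover genes higher and 0 to 1 lower, and log2FC from -0.0835 to 0.0821 for RFXAP, -0.0408 to 0.0129 for NFYC, -0.0991 to 0.0333 for SOCS3, -0.105 to 0.0982 for EPCAM, -0.0806 to 0.0279 for GBP3, -0.135 to 0.134 for IFITM1 and -0.0545 to 0.159 for IRF7. Of 1148 values of 89 other tested genes, named or listed as markers, under the alternatives, 1047 kept direction and side of the threshold, 70 lost the call, 11 gained it and 20 reversed. The cause was not tested. The genes called over the whole table ranged from 2280 to 3817 higher and from 2418 to 3335 lower. Depth limits HLA-F and HLA-G most among the class I chains, with at most 141 reads per library.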

Other observations

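Within the interferon-response list, some families of related genes passed the test together and others in part, and the genes named here were chosen after their values were seen. Of the 44 tested genes of the list, 30 were upregulated and 1 downregulated, beside 22.7% and 24.2% of all tested genes. Of the guanylate-binding proteins, GBP4 rose from 1.32 ± 0.208 to 2.44 ± 0.529 CPM and GBP5 from 0.392 ± 0.0825 to 0.775 ± 0.212 CPM, whereas GBP3 was at 46.4 ± 3.37 and 45.5 ± 2.63 CPM and did not pass edgeR's test. Of the oligoadenylate synthetases, which sense double-stranded RNA, OAS1 rose from 0.194 ± 0.0371 to 0.749 ± 0.21 CPM, on 4, 4 and 3 reads in the control libraries. OAS3 rose from 18.6 ± 1.5 to 28.3 ± 0.873 CPM, while OAS2 (log2FC 0.21) and OASL (log2FC 0.21) did not pass. With 1 replicate left out, the log2FC ran from 0.097 to 0.34 for OAS2 and from 0.11 to 0.37 for OASL. IFIT1, IFIT2 and IFIT3, antiviral proteins with tetratricopeptide repeats, all rose (log2FC 0.25, 0.38 and 0.28), as did the antiviral GTPase genes MX1 (7.94 ± 1.29 to 17.8 ± 0.798 CPM) and MX2 (1.6 ± 0.286 to 2.33 ± 0.429 CPM), and none of IFITM1, IFITM2 and IFITM3, which block viral entry, passed (log2FC -0.04, -0.15 and 0.07). The factors STAT2 (log2FC 0.49) and IRF9 (log2FC 0.32), which act downstream of type I interferon, rose, and IRF7 (log2FC 0.07) did not pass. CD274, which encodes the T cell inhibitory ligand PD-L1, rose from 54.6 ± 2.39 to 62.0 ± 2.64 CPM. The calls of GBP5 and MX2 were lost in DESeq2 (adjusted p = 0.169 and 0.152), and in edgeR without control replicate 2 or 3 or PELP1-KD replicate 2, without PELP1-KD replicate 1 for GBP5 and without PELP1-KD replicate 3 for MX2 (adjusted p 0.0588 to 0.155). IFIT1 did not pass without control replicate 2 (edgeR adjusted p = 0.0548). Whether members of a family differed from each other was not tested.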
